A study of Mus musculus with 6 samples.

Results

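The 10 genes described here write, copy, read or remove DNA methylation: Dnmt1, Dnmt3a, Dnmt3b, Uhrf1, Uhrf2, Tet1, Tet2, Tet3, Tdg and Mbd2. They were taken by symbol from the 55487 genes of the deposited tables, without use of their values, and all 10 passed the filter on low counts that left 11950 genes for testing. Poly(A) RNA was sequenced from splenic naive CD4+ T cells (TN cells) of wild-type (WT) C57BL6/J mice, in 3 libraries from mice with no treatment and 3 from mice given rapamycin, an inhibitor of the kinase mTOR. Wild-type genotype, strain, organ and cell type were thus common to both groups, and rapamycin was the one labelled difference. The labels give no dose, duration, age or sex, and they do not say whether each library came from a separate mouse, so p-values measure the spread between libraries. The question of the series was how mTOR inhibition in the animal changes naive CD4+ T cells.

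DNA methylation in mammals sits mainly on the cytosine of CpG dinucleotides. DNMT3A and DNMT3B place it on unmethylated DNA, and DNMT1 copies it to the new strand after replication, guided there by UHRF1. TET enzymes oxidise the methyl group to hydroxymethyl, formyl and carboxyl forms, TDG excises the formyl and carboxyl forms for base excision repair, and MBD2 reads methylated CpG as part of the NuRD repressor complex. In T cells these enzymes are known for setting the methylation of loci such as Foxp3 and the cytokine genes. None of the files measures methylation itself, so what follows concerns transcripts only.

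In the rapamycin libraries Tet3 was 1.82-fold, Tet2 1.39-fold, Uhrf2 1.36-fold, Dnmt3a 1.23-fold and Dnmt1 1.07-fold as high as in the untreated libraries, and Uhrf1 was 0.587-fold. Thus 5 of the 10 genes were called higher and 1 lower at an adjusted p under 0.05 in edgeR's quasi-likelihood test, and Dnmt3b, Tet1, Tdg and Mbd2 did not pass. The CPM of the groups did not overlap for the 6 called genes, as for 53.8% of all tested genes. Calls were common across the transcriptome, with 24.1% of tested genes higher and 23.3% lower, 47.4% in all, so that being called does not set these genes apart. The fold change followed transcript length over the genes with an average log2 CPM of 2 or more, as described further on. After correction for that trend Tet3, Tet2 and Uhrf2 were still higher and Uhrf1 was still lower, whereas Dnmt3a lost its call and Dnmt1 changed direction.

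Total expected counts ran from 9712671 to 11393317 in the untreated and from 8757280 to 9315370 in the rapamycin libraries, and a count of 3 corresponded to between 0.263 and 0.343 CPM, which is the read count of a gene scaled to a common library total. The labelled cell type was checked against 16 naive CD4+ identity genes, all of them detected, of which 8 were higher and 7 lower with rapamycin (4 lower in limma on TPM). Cd4 stood at 716 ± 11.6 and 687 ± 9.29 CPM (mean ± SD, n = 3), a difference called lower (adjusted p = 0.0158) but not without the third untreated (adjusted p = 0.0824) or the second rapamycin library (adjusted p = 0.0954). Trac, the T cell receptor alpha constant gene, fell from 678 to 391 CPM (log2 fold change -0.80), whereas Il7r, the interleukin 7 receptor, rose from 489 to 863 CPM (0.82) and Bach2, a repressor of effector genes, from 151 to 254 CPM (0.76). Markers of other cells were present and differed between the groups. Both CD8 T cell genes were higher with rapamycin, and their summed CPM was 19.1 to 20.5 without and 87.9 to 91.0 with it. Of 12 B and plasma cell genes 5 were lower (1535 to 1583 and 1195 to 1236 CPM), of 11 tested myeloid genes 9 were lower (74.4 to 84.2 and 36.6 to 40.3 CPM), and of 10 tested memory and regulatory CD4+ genes 2 were higher and 6 lower (233 to 241 and 144 to 148 CPM). Of 7 tested NK and cytotoxic genes 1 was higher and 2 lower (71.2 to 75.4 and 68.7 to 70.4 CPM). Much of that sum was Prf1, at 40.7 and 41.2 CPM and not called. Within it Gzma fell from 7.79 to 2.18 CPM and Klrb1c from 2.35 to 0.751 CPM, while Nkg7 rose from 4.64 to 6.82 CPM. Of 3 tested erythroid genes 2 were lower (7.99 to 11.3 and 2.62 to 3.13 CPM). The part of these shifts in the values of the 10 genes was not tested, and in bulk RNA fewer cells of a type and less RNA per cell cannot be told apart.

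RefSeq promoter windows (GRCm38.p6, the assembly named mm10; 250 bases before to 50 after each start site) were present for 9 of the 10 genes, in 14 windows, and not for Mbd2. The 4 printed here, without their exonic bases, belong to the genes whose calls kept their direction after the length correction. In the Uhrf1 and Uhrf2 sequences the capitals mark a motif match, and in the Tet3 and Tet2 sequences every CpG.
Uhrf1 (chr17:56304063-56304312, plus strand): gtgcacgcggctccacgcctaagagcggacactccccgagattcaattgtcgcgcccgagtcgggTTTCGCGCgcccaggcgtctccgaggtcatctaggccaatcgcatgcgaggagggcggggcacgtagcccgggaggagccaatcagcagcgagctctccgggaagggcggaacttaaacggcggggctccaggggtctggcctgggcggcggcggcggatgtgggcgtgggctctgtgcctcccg
Uhrf2 (chr19:30030263-30030512, plus strand): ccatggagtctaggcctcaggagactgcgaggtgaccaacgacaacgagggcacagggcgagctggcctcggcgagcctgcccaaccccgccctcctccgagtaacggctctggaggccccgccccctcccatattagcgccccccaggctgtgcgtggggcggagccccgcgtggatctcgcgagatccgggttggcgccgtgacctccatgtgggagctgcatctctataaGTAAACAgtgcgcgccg
Tet3 (chr6:83441679-83441928, minus strand): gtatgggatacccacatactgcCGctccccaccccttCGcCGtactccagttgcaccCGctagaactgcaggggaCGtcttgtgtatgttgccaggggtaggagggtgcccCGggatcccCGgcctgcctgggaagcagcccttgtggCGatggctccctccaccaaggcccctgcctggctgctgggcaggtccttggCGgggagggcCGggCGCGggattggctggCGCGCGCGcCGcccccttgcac
Tet2 (chr3:133544391-133544640, minus strand): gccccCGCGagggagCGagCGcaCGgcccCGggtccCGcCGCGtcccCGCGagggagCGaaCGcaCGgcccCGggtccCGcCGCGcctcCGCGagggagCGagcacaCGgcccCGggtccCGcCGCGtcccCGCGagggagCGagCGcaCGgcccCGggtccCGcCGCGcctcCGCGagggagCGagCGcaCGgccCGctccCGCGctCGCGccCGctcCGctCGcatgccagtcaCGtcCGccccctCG

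At the median, the promoter windows of these genes held more CpG than all windows, which were not limited to expressed genes. The median over the 14 windows was 27 CpG per 300 bases and 69% G and C, beside 7 CpG and 52.7% over all 32817 windows of the table, whose quartiles were 3 and 20 CpG. The full Tet2 window held 57 CpG and that of Tet3 held 22, and the printed Tet2 sequence holds the 10 bases ccgcgaggga 5 times. The quartiles over the 14 windows were 17.25 and 33 CpG, and 2 of the Dnmt3a windows overlap. Not every window was rich in CpG. One Dnmt1 window, for the start site farthest upstream, held 2 CpG. Another Dnmt1 window and a Uhrf1 window held 12 each, that of Tet1 17 and a Dnmt3a window 18. Motifs were searched on both strands. An E2F site (TTTCCCGC, TTTCGCGC, TTTGCCGC or TTTGGCGC) occurred in 2.26% of all windows, and among the 10 genes in 1 window of Uhrf1, at position -185 from the start site, and in 1 window of Dnmt1, at positions -219 and 34. The FOXO site GTAAACA occurred in 3.65% of all windows and, among these genes, in that of Uhrf2, at position -17. The E-box CACGTG (7.15% of all windows) was found in 1 Dnmt3a window and in that of Tdg, and the cyclic AMP element TGACGTCA (1.79%) in that of Tdg. A match describes the letters and shows no binding.

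Among the maintenance genes, Uhrf1 and Uhrf2 moved in opposite directions. Uhrf1 (chromosome 17, 56303321 to 56323486) encodes the protein that binds hemimethylated CpG and brings DNMT1 to it. It measured 4.42, 4.66 and 3.56 CPM in the untreated libraries and 2.29, 2.82 and 2.32 CPM in the rapamycin libraries. Every untreated library lay above every rapamycin library, on 51, 49 and 35 against 21, 25 and 20 reads. The change was -0.77 ± 0.26 (log2 fold change ± SE, adjusted p = 0.0125, edgeR quasi-likelihood), and -0.82 after the length correction (adjusted p = 0.00923). The call was lost without the second untreated library (-0.70, adjusted p = 0.0540), with the deposited effective lengths as offsets (-0.51, adjusted p = 0.303) and in limma on log2(TPM + 1) and log2(TPM + 0.1) (-0.23 and -0.39, adjusted p = 0.478 and 0.447). In TPM, a level scaled for transcript length and library total, the second rapamycin library stood at 2.34 beside 1.02 and 0.97 in the other two, and in it the deposited mean transcript length of the gene was 1938 bases against 3391 and 3586. The part of that length in the TPM value was not tested.

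Uhrf2 (chromosome 19, 30030513 to 30093722) encodes the paralog of UHRF1, which also binds modified CpG but does not replace UHRF1 in DNMT1 recruitment. Its libraries stood at 76.1, 76.8 and 74.4 CPM without and 100.6, 105.5 and 102.2 CPM with rapamycin. The groups were far apart beside their spread, with means of 75.8 ± 1.20 and 103 ± 2.49 CPM (SD, n = 3). The log2 fold change was 0.44 ± 0.05 (adjusted p = 1.3e-11), with 0.42 after the length correction, and it was called in each of the 19 alternatives run. Uhrf2 thereby gave 17.2, 16.5 and 20.9 reads per Uhrf1 read in the untreated libraries and 43.9, 37.4 and 44.1 in the rapamycin libraries. Of the 9 annotated Uhrf2 transcripts 1 is coding and 8 retain an intron. The gene counts take in all of them, and the part of the coding form in the change was not tested.

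Dnmt1 (chromosome 9, 20907209 to 20959888), the maintenance methyltransferase, measured 198.1, 193.8 and 206.0 CPM without rapamycin. With rapamycin it measured 206.2, 221.4 and 213.9 CPM. The highest untreated and the lowest rapamycin library were separated by less than 1 CPM, so the groups met without overlapping. Its change was 0.10 ± 0.03 on the log2 scale (adjusted p = 0.00686), but -0.08 after the length correction (adjusted p = 0.0448), which is a call in the other direction. The call was lost in 8 of 19 alternatives, among them leaving out the second untreated library (0.08, adjusted p = 0.0695) or the second rapamycin library (0.08, adjusted p = 0.0905).

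**Figure D1:**
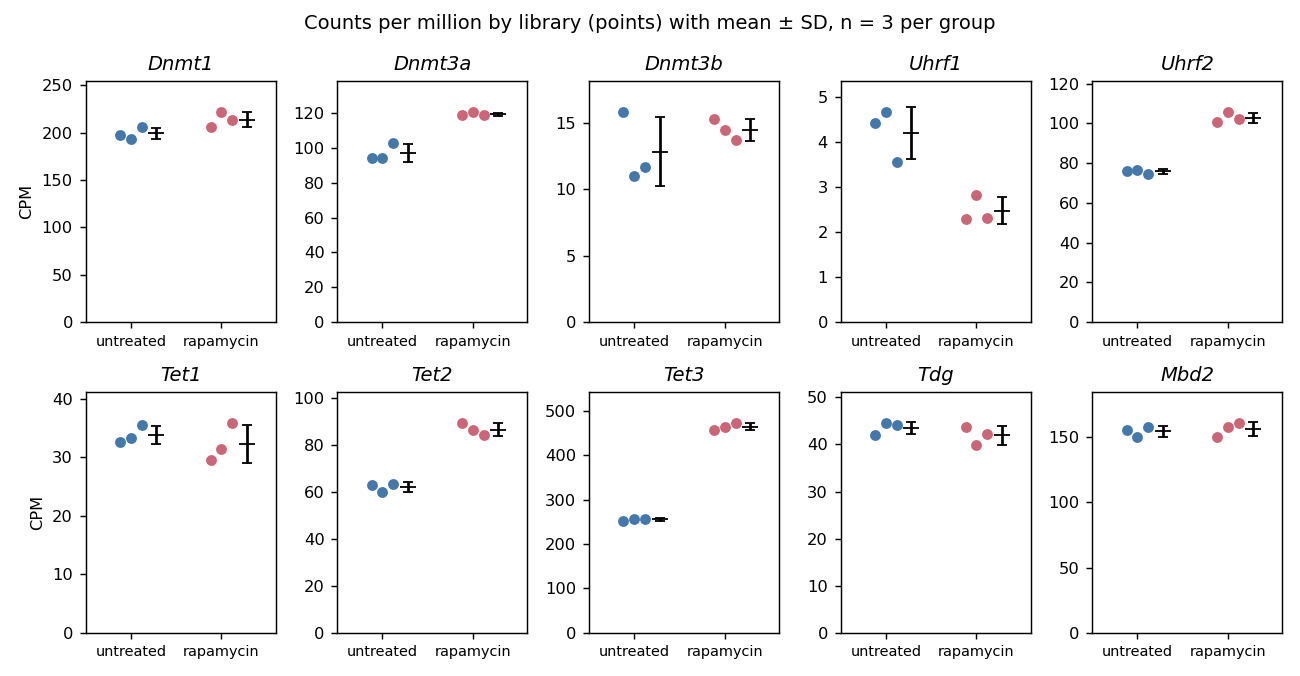
CPM (linear axis from 0, a separate scale in each panel) of the 10 genes in each of the 3 untreated and 3 rapamycin libraries (points), with the mean and SD of each group. The groups stand apart for Tet3, Tet2, Uhrf2, Dnmt3a and Uhrf1, nearly meet for Dnmt1, and overlap for Dnmt3b, Tet1, Tdg and Mbd2.

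Of the de novo methyltransferases, Dnmt3a (chromosome 12, 3806007 to 3914443) was the more abundant. It stood at 94.2, 94.3 and 102.9 CPM in the untreated libraries and at 118.7, 120.2 and 118.7 CPM in the rapamycin libraries. The groups did not overlap, and the log2 fold change was 0.30 ± 0.04 (adjusted p = 9.4e-08). Its transcripts are long, and the fitted trend at their length was 0.25. The length correction therefore left 0.05 (adjusted p = 0.422, 95% interval -0.04 to 0.14), and the call was lost.

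Dnmt3b (chromosome 2, 153649450 to 153687730) encodes the de novo enzyme best known from the early embryo. It measured 15.8, 11.0 and 11.7 CPM without and 15.3, 14.4 and 13.7 CPM with rapamycin. The first untreated library was the highest of all 6, and the groups overlapped. Dnmt3b was at 0.17 ± 0.13 in log2 fold change (adjusted p = 0.309), with a 95% interval from -0.09 to 0.42, which includes no change as well as an increase as large as that of Dnmt3a.

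Of the 3 TET genes, Tet3 and Tet2 were called higher and Tet1 was not called. Tet3 (chromosome 6, 83362373 to 83459084), the TET enzyme also known from the zygote, gave 252.5, 256.1 and 257.4 CPM in the untreated libraries. In the rapamycin libraries it gave 457.1, 463.1 and 472.3 CPM. The group means of 255 ± 2.50 and 464 ± 7.64 CPM (SD, n = 3) lay many SD apart. The log2 fold change was 0.86 ± 0.03 (adjusted p = 6.3e-36), larger than that of 97.5% of the tested genes. At its length the fitted trend was 0.39, and the corrected change was 0.48 (adjusted p = 6.9e-23).

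Tet2 (chromosome 3, 133463679 to 133545139), the TET enzyme often mutated in T cell lymphoma, stood at 63.0, 59.7 and 63.4 CPM without and 89.2, 86.3 and 84.0 CPM with rapamycin. All rapamycin libraries lay above all untreated ones. The log2 fold change was 0.48 ± 0.05 (adjusted p = 1.8e-11), and 0.27 after the length correction (adjusted p = 3.6e-05). Neither Tet3 nor Tet2 lost its call in any of the 19 alternatives.

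Tet1 (chromosome 10, 62804570 to 62908996), the TET enzyme prominent in embryonic stem cells, measured 32.5, 33.2 and 35.5 CPM without and 29.5, 31.4 and 35.8 CPM with rapamycin. The third rapamycin library was the highest of the 6 and the first the lowest, so the groups overlapped. Tet1 was at -0.07 ± 0.08 in log2 fold change (adjusted p = 0.536, 95% interval -0.23 to 0.09). The trend at its length was 0.32, and after the correction Tet1 was called lower, at -0.39 (adjusted p = 1.1e-04). In TPM its means went the other way, from 5.37 to 6.88, with overlapping groups. The deposited length of Tet1 ran from 5875 to 10614 bases over the libraries, and the correction used 1 mean length. The part of that spread in these values was not tested. The reads of Tet3 per read of Tet1 went from 7.77, 7.71 and 7.25 in the untreated to 15.5, 14.8 and 13.2 in the rapamycin libraries. The groups did not overlap in this ratio.

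Tdg and Mbd2 act downstream of methylation. Tdg (chromosome 10, 82629828 to 82650799), the thymine DNA glycosylase, measured 42.0, 44.5 and 44.0 CPM without and 43.8, 39.8 and 42.2 CPM with rapamycin. The groups overlapped, with a log2 fold change of -0.05 ± 0.07 (adjusted p = 0.574, 95% interval -0.19 to 0.09). Its counts are uncertain, since it was the only one of the 10 genes with counts that were not whole and parts of it recur in other genes. Tdg-ps is 98.7% identical to it over 2968 bases, and Tdg-ps, Gm9855 and Gm5597 held at most 5.3 counts in any library. Glt8d2, on the opposite strand, matches it over 367 bases and held 4.02 to 26.7 counts. The part of each in the counts of Tdg was not tested.

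Mbd2 (chromosome 18, 70568189 to 70626131), the reader of methylated CpG in NuRD, measured 155.5, 149.8 and 157.7 CPM without and 150.4, 157.3 and 160.6 CPM with rapamycin. Again the groups overlapped. The log2 fold change was 0.02 ± 0.04 (adjusted p = 0.752, 95% interval -0.06 to 0.09), and 0.10 after the length correction (adjusted p = 0.0341), a call toward higher. Mbd2 has the shortest transcripts of the 10 genes, and the trend at that length was -0.08.

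The length trend that bears on these values was read over the tested genes with an average log2 CPM of 2 or more. When these genes were put in 10 equal groups by the deposited transcript length, the median log2 fold change went from -0.32 at a median length of 812 bases to 0.25 at 6162 bases. Tet3 and Tet1 are longer than the last of these medians, so their correction rests on the end of the fitted curve. The correction fitted, in each library, a smooth curve on length of the deviations in log2 CPM from the mean of all libraries and removed it. Its part in any single gene was not tested. With it 4 of the 10 genes were called higher (Uhrf2, Tet2, Tet3 and Mbd2) and 3 lower (Dnmt1, Uhrf1 and Tet1), where 20.2% and 18.3% of all tested genes were, 38.5% in all. The median log2 fold change of the 10 genes was 0.13 beside -0.01 over all tested genes, and 0.07 beside -0.01 after the correction. In limma on log2(TPM + 1) 5 of the 10 were higher and none lower, where the background itself was unequal, 22.8% higher and 9.63% lower, 32.4% in all.

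**Figure D2:**
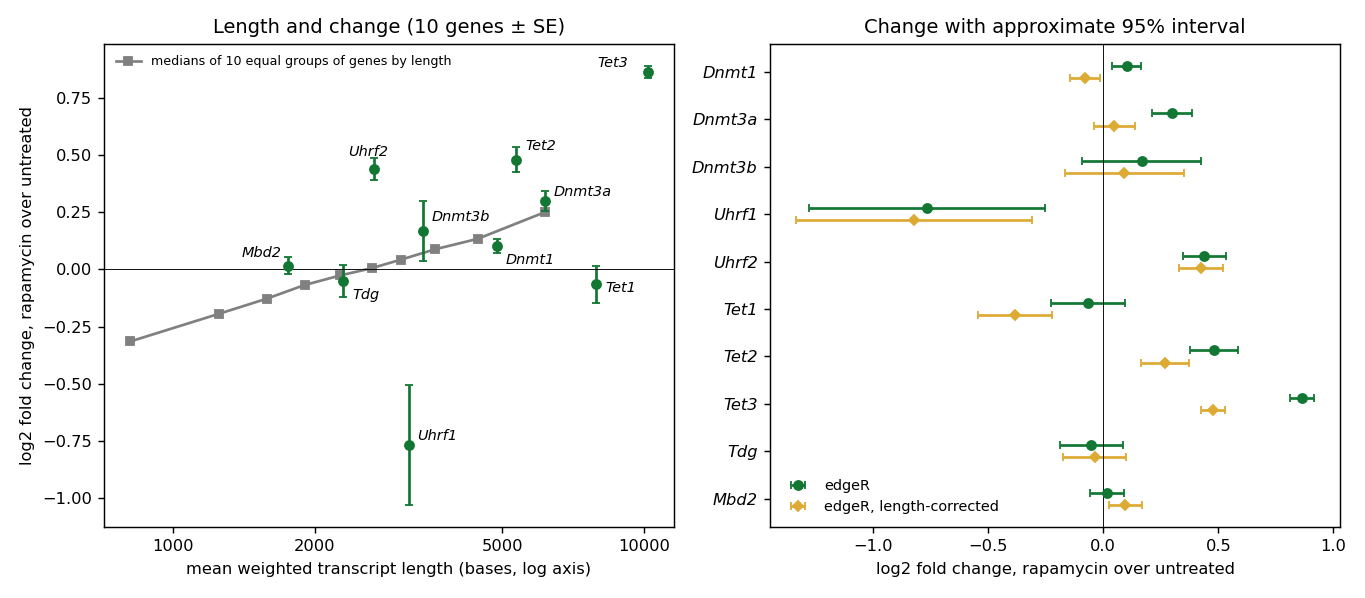
Left, the log2 fold change (rapamycin over untreated, edgeR, ± SE) of each of the 10 genes against its mean deposited transcript length in bases (log axis), with the median of 10 equal groups of genes by length in grey; Tet2 and Uhrf2 stand above the grey line and Uhrf1 below it, and Tet3 and Tet1 lie to the right of its end, at 0.86 and -0.07. Right, the fold change with its approximate 95% interval before and after the length correction, which takes Tet3 from 0.86 to 0.48 and Tet1 from -0.07 to -0.39.

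Levels of different genes were compared in TPM, which is per length. Mbd2 was the most abundant transcript in both groups, at 129, 138 and 139 TPM without and 141, 139 and 151 TPM with rapamycin. In the untreated libraries Dnmt1 (54.8 to 59.2 TPM), Uhrf2 (39.8 to 45.7), Tet3 (33.2 to 34.3), Tdg (24.9 to 30.0), Dnmt3a (19.1 to 21.8) and Tet2 (15.2 to 16.5) followed, each with a range that did not meet that of the next. Dnmt3b (4.53 to 5.96 TPM) and Tet1 (4.22 to 6.95) overlapped, and Uhrf1 was lowest at 1.48 to 2.03 TPM. In the rapamycin libraries Tet3 (64.1 to 67.9 TPM) had passed Uhrf2 (55.3 to 61.1) and overlapped Dnmt1 (61.9 to 66.7). Dnmt3a (27.0 to 31.4 TPM) likewise overlapped Tdg (28.6 to 30.8), from which it was separate in the untreated libraries. The deposited FPKM values gave the same order in both groups. That is no separate check, since FPKM and TPM differ by a common factor within each library.

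**Figure D3:**
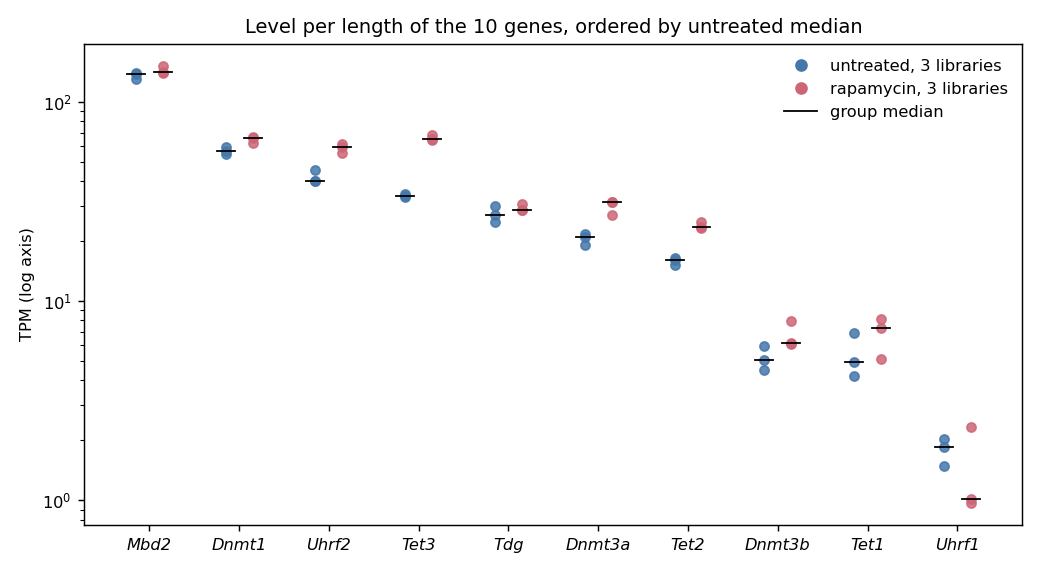
TPM (log axis) of the 10 genes in each library, with genes in the order of their untreated median, points for libraries and a separate colour for each group. Tet3 moves from between 33.2 and 34.3 to between 64.1 and 67.9 TPM, level with Dnmt1, while Mbd2 stays first and Uhrf1 last.

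Within the TET family the summed TPM was 53.3, 54.3 and 57.3 in the untreated and 94.7, 95.1 and 99.6 in the rapamycin libraries. Tet3 supplied 62.2%, 61.9% and 59.9% of that sum without and 67.7%, 68.4% and 68.2% with rapamycin. The share of Tet2 was 28.5%, 30.4% and 27.9% without and 24.6%, 26.2% and 23.6% with rapamycin, so its own rise came with a smaller part of the family. The 3 DNMT genes summed to 84.3, 78.5 and 85.2 TPM without and 99.4, 106.0 and 98.8 TPM with rapamycin. Dnmt1 supplied 67.1%, 69.8% and 69.5% of the DNMT sum without and 62.3%, 62.9% and 66.4% with rapamycin. In counts, Tet3 gave 1.27, 1.32 and 1.25 reads per Dnmt1 read without and 2.22, 2.09 and 2.21 with rapamycin. These sums, shares and ratios are descriptions, were given no test and were not corrected for the length trend. On log2(TPM + 1) the median log2 fold change of all tested genes was itself 0.09. After the length correction of the counts Dnmt1 was called lower (-0.08), Dnmt3a was not called (0.05) and Tet3 was at 0.48.

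RSEM also reports for each gene and library a transcript length weighted by the estimated mix of isoforms. For Tet3 it was 10092 to 10277 bases without and 9989 to 10222 bases with rapamycin, close to the longest annotated transcript of 10904 bases. For Tet2 it was 5011 to 5709 and 5101 to 5611 bases, well short of the 9179 bases of its longest transcript. Of the 10 annotated Tet2 transcripts 4 are coding and 5 retain an intron, and its gene counts take in all of them. Dnmt3a, which has a long form of 9685 bases and a shorter one of 5424 bases from an internal start, stood at 5924, 6729 and 6703 bases without and 5546, 5606 and 6413 bases with rapamycin. Tet1 spread most in bases, from 5875 to 10614 over the 6 libraries. The groups overlapped for all 10 genes, where 17.7% of 9903 genes did not overlap, and every adjusted p was 0.8 in the exact two-sided permutation test over libraries, whose smallest possible p is 0.1. A change in isoform mix was therefore not detectable here. Dnmt3a, Tet2 and Tdg overlap a gene on the opposite strand, and since the strand setting of the counting is not given in the sources used here, reads of the partners may not be separated.

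Partners of the maintenance enzymes did not share one direction. Of 10 genes that act with DNMT1 and UHRF1 at replicating DNA, 1 was higher and 2 lower, but 5 were lower with upper-quartile factors or with no composition factors, 3 were higher and 1 lower in limma on log2(TPM + 1), and 2 were higher without the first untreated library. Cdca7l, a paralog of the chromatin factor CDCA7, fell from 33.9 ± 1.40 to 17.1 ± 0.973 CPM (log2 fold change -0.98, adjusted p = 9.5e-14). Pcna, the replication clamp that holds DNMT1 at the fork, fell from 133 ± 3.14 to 116 ± 9.46 CPM, and was not called after the length correction (-0.05) or in limma on TPM. Usp7, the deubiquitinase that stabilises DNMT1 and UHRF1, stood at 301 ± 11.2 and 311 ± 5.25 CPM and did not pass, although it was called higher in limma on log2(TPM + 1) (0.33, adjusted p = 0.0166). Of 17 tested replication and cycling genes 2 were higher and 6 lower (2 lower in limma on log2(TPM + 1)), and their summed CPM was 519 to 542 without and 515 to 545 with rapamycin. Among them Top2a, the mitotic topoisomerase, fell from 6.35 to 2.79 CPM (-1.18), and Mcm7, a helicase subunit, rose from 66.7 to 84.4 CPM (0.34). Mki67, the proliferation marker, stood at 4.73 and 2.90 CPM (-0.71, adjusted p = 0.0143), a call lost without the first untreated library (adjusted p = 0.0606) or the second rapamycin library (adjusted p = 0.0948). Its levels, like those of Uhrf1, rest on few reads.

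Of 8 tested cofactors and repressors that recruit DNMT3 enzymes, 4 were higher and 1 lower. None was lower in DESeq2, in limma on TPM, with effective-length offsets or without the second rapamycin library. The 1 lower gene was Cbx3 (-0.11), whereas after the length correction it was Cbx5 (-0.27). Atf7ip, the partner of SETDB1, rose from 252 ± 6.78 to 340 ± 13.5 CPM (log2 fold change 0.43, and 0.20 after the length correction). Setdb1 (0.25) and Ehmt1 (0.20), both histone H3 lysine 9 methyltransferases, were called only before the correction. Ehmt2, a further such methyltransferase, was called higher before (0.12) and after it (0.09), but not with upper-quartile factors. Dnmt3l, the germline cofactor of the DNMT3 enzymes, had at most 3 counts in any library.

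Of the genes that act with TET proteins 7 of 8 tested were higher and none lower, 6 of 8 were higher after the length correction, 5 in limma on log2(TPM + 1) and 3 with effective-length offsets. Ogt, the O-GlcNAc transferase that binds TET2 and TET3, rose from 451 ± 5.58 to 560 ± 9.27 CPM (0.31, and 0.18 corrected). Mgea5, also named Oga, encodes the enzyme that removes the same sugar, and rose from 366 ± 9.59 to 483 ± 7.63 CPM (0.40, and 0.31 corrected). Dcaf1, of the ubiquitin ligase that modifies TET proteins, was at 0.27 and lost its call in limma on log2(TPM + 1) (0.20, adjusted p = 0.637) and with effective-length offsets (0.13, adjusted p = 0.828). Hcfc1, which encodes a partner of OGT, was at 0.23 before and -0.06 after the correction. Since 24.1% of all tested genes were higher, and since the list was chosen with results of these data known, its count is a description.

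TET enzymes use 2-oxoglutarate, iron and oxygen and are supported by vitamin C. Of 13 tested genes of that supply 3 were higher and 6 lower, but 1 was lower in limma on TPM and 3 with effective-length offsets. Idh2, the mitochondrial isocitrate dehydrogenase, fell from 67.7 ± 2.81 to 54.6 ± 2.34 CPM (-0.31, and -0.19 corrected). Glud1, glutamate dehydrogenase, stood at 198 ± 4.17 and 174 ± 2.81 CPM (-0.18), and its call was lost in limma on log2(TPM + 1) (-0.058, adjusted p = 0.652) and with effective-length offsets (-0.17, adjusted p = 0.138). D2hgdh, which clears the TET inhibitor D-2-hydroxyglutarate, rose from 23.3 ± 1.79 to 31.4 ± 0.631 CPM (0.43). Idh1, the cytosolic isocitrate dehydrogenase, was low in both groups at 5.98 ± 0.752 and 6.35 ± 0.554 CPM and did not pass.

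Downstream of TDG, 1 of 15 tested base excision repair genes was higher and 1 was lower. Apex1, the abasic site endonuclease, fell from 36.4 ± 1.75 to 25.8 ± 1.96 CPM (-0.50, and -0.29 corrected). Gadd45b, which has been linked to active demethylation, was at 0.29 (adjusted p = 0.0388), and its call was lost without the first or the third untreated or the second rapamycin library (adjusted p = 0.0515, 0.166 and 0.221).

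Of 8 other genes of the methyl-CpG-binding domain (MBD) family and of methyl-CpG zinc finger proteins, 5 were higher and none lower, and 3 were higher after the length correction (Mbd1, Mbd3 and Mbd6). Not all of their products read the mark: MBD3 and MBD6 carry the domain but are not known to bind methylated CpG selectively. Mbd6 rose from 112 ± 9.13 to 149 ± 6.82 CPM (0.41, and 0.33 corrected), and Mbd1 from 97.5 ± 5.28 to 116 ± 3.55 CPM (0.25, and 0.23 corrected). Zbtb38 (0.34) and Zbtb4 (0.18), zinc finger readers, lost their calls with the correction, which took Zbtb4 to -0.08. Of 12 genes of the NuRD complex that holds MBD2, 4 were higher and 4 lower, with none lower in limma on TPM and 1 with effective-length offsets. Its remodelling subunit Chd3 rose from 1139 ± 11.5 to 1572 ± 28.8 CPM (0.46, and 0.45 corrected), while Chd4 was at 0.16 before the correction and called lower, at -0.05, after it. Gatad2b, a scaffold subunit, rose by 0.45 (0.23 corrected), and the deacetylase gene Hdac1 was at -0.17, a direction that turned on log2(TPM + 1), to 0.08.

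DNA methyltransferases take their methyl group from S-adenosylmethionine, or SAM. Of 13 tested genes of methionine uptake and the SAM cycle 4 were higher and 2 lower, also after the length correction, but 2 were higher with effective-length offsets, and 1 was lower there, in limma on TPM and without the second rapamycin library. Slc43a2, an amino acid transporter, rose from 53.6 ± 4.95 to 85.4 ± 3.55 CPM (0.67), and Slc7a5, the large neutral amino acid transporter, fell from 48.0 ± 3.58 to 34.1 ± 0.423 CPM (-0.49). Mat2a, which makes SAM, was at 0.10 (adjusted p = 0.00921), a call lost without the third untreated library (adjusted p = 0.0722) or the first rapamycin library (adjusted p = 0.0622). Ahcy, which removes the product inhibitor of methyltransferases, was at 61.6 ± 1.01 and 62.1 ± 0.616 CPM and did not pass.

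**Figure D4:**
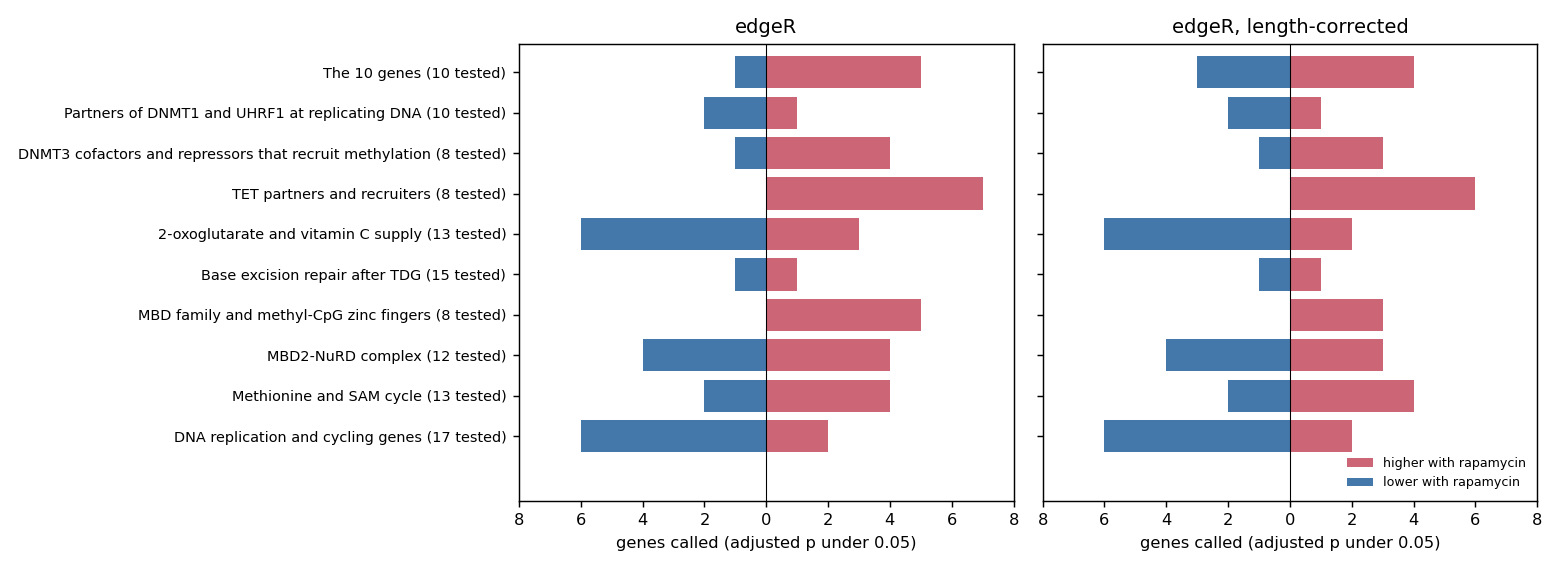
Number of genes called higher (right of 0) or lower (left of 0) at an adjusted p under 0.05 in each list, in the edgeR fit and in the length-corrected fit, with the number of genes tested in brackets. The TET partner list has 7 of 8 genes higher before and 6 of 8 after the correction (3 with effective-length offsets, not drawn), and none lower in either.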

How the data were processed

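Libraries were made with a directional NEBNext kit, per the labels' protocols. The submitters' processing notes name STAR and RSEM with mm10, and their versions are not given in the sources used here. Each deposited table holds, per the file headers, an expected count, a TPM value, an FPKM value and 2 lengths for every gene. In the authors' expected counts reads shared between genes are split, and 25.9% to 29.7% of a library lay on genes with a count farther than 0.005 from a whole number. Deposited TPM and FPKM divide by length and depth. GENCODE vM21 symbols matched 55227 gene identifiers and not the other 260.

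Expected counts were rounded to whole numbers, filtered with filterByExpr, scaled by TMM factors and tested with edgeR 4.0.16 (quasi-likelihood, robust, group as the only term; R 4.3.3), with Benjamini-Hochberg adjustment over 11950 genes and a threshold of 0.05. The SE of a log2 fold change was its size over the square root of F. The length correction put into the offsets a spline (df 5) of each library's deviations on log2 mean length, fitted where average log2 CPM was 2 or more. The 19 alternatives changed scaling, filter, tool (DESeq2 1.42.0, limma 3.58.1), unit, pseudocount (1 or 0.1), length handling, replicate block or left out 1 library. The 10 genes and the lists were chosen with earlier results of these data known, and some list genes are not reported here. All 10 were described; from each list up to 4 called genes at that level or above were taken by smallest adjusted p, with a few fixed genes such as Pcna, Ogt and Mki67. Promoter windows came from RefSeq, and copies were searched with blastn in GENCODE transcripts.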

Additional observations from a re-analysis of the deposited data

How the results depend on the processing

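Tet2, Tet3 and Uhrf2 kept their call in each of the 19 alternatives, and Dnmt3b and Tdg were called in none. Over all genes 2874 were higher and 2785 lower. The lower count became 1151 on log2(TPM + 1), 1137 on log2(TPM + 0.1) and 1801 with effective-length offsets. Of the 10 genes, 0 were lower in these 3 settings, and 3 with the length correction, with or without the replicate block. With 1 library left out, 2579 to 2698 genes were higher and 2486 to 2562 lower, and of the 10 genes 4 to 5 were higher and 0 to 1 lower. Directions turned with the length correction, without and with the block, for Dnmt1 (-0.080 and -0.081), Hcfc1 (-0.057 and -0.058), Chd4 (-0.053 in both), Zbtb4 (-0.075 and -0.074), Kcnq1ot1 (-0.12 in both) and Igf2r (-0.025 and -0.024), and without it for Mtr (-0.00039). They turned on log2(TPM + 1) and log2(TPM + 0.1) for Hdac1 (0.077 and 0.078), and on log2(TPM + 1) for Itgam (0.018). The cause was not tested. The replicate block gave 2850 higher and 2743 lower genes, and 5 and 1 of the 10. Same-numbered libraries did not deviate together (correlations -0.0249, -0.0092 and -0.0311 over 9925 genes). With 3 libraries per group this cannot settle whether the numbers pair them, and the labels do not say. Depth limits Uhrf1 most, at 20 to 51 reads a library.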

Other observations

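Genes that DNA methylation is known to keep silent or to mark by parent were read in the same fit. Of 15 germline genes held silent by promoter methylation, 8 had no count in any library, among them Sycp1, Mael and Stra8, and 1 was tested. That gene, Tuba3a, stood at 1.42 ± 0.261 CPM without and 0.795 ± 0.524 CPM with rapamycin and did not pass. Of 8 tested imprinted genes 5 were higher and 2 lower, and after the length correction 3 were higher and 1 lower, as was 1 in limma on TPM. Zrsr1, a splicing factor gene expressed from the paternal allele, rose from 41.7 ± 1.47 to 54.8 ± 3.36 CPM (log2 fold change 0.39, and 0.41 corrected), and the noncoding Peg13 rose by 0.31 (0.14 corrected). Kcnq1ot1, the long noncoding RNA of the Kcnq1 domain, was at 0.78 before and -0.12 after the correction, and Igf2r, the receptor for IGF2, at 0.32 and -0.02.

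Of 10 tested genes whose loci lose methylation in effector or regulatory CD4+ cells, 4 were higher and 2 lower, and 2 and 1 after the correction. Only 2 were higher without the second untreated or the first rapamycin library, and 1 was lower without the third library of either group. The cytokine genes Il2, Il4, Il5, Il13 and Il17a had no count in any library. Ctla4, an inhibitory receptor, rose from 3.64 ± 1.13 to 6.37 ± 0.511 CPM (0.82), and Ikzf2, the gene of the factor Helios, from 4.46 ± 0.410 to 7.56 ± 1.38 CPM (0.76). Ikzf2 lost its call in limma on log2(TPM + 1) (adjusted p = 0.0976) and with effective-length offsets (adjusted p = 0.0849). Summed memory and regulatory CD4+ genes were lower with rapamycin, as given above, but that sum contains Ctla4 and Ikzf2 themselves. In it the memory genes Crip1 and Cd44 fell from 80.0 to 27.8 and from 33.7 to 10.7 CPM. Of its other regulatory genes Foxp3 and Il2ra were not called. Tnfrsf18 was called lower (-0.28), though not after the length correction. The part of such cells in the values of Ctla4 and Ikzf2 was not tested.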
